A study of Mus musculus with 12 samples.

Results

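The netrin guidance genes measured here were the ligands Ntn1 and Ntn4, the receptors Dcc and Neo1, and the 4 Unc5 receptors Unc5a, Unc5b, Unc5c and Unc5d. These 8 genes were taken by symbol from the 49671 genes of the tables, and all 8 were among the 18022 genes that passed the filter for low counts. The libraries were bulk RNA sequencing of GFP-positive motor neurons that had been sorted from wildtype mouse embryos carrying the Isl1MN:GFP reporter, which labels motor neurons through an Isl1 enhancer. There were 6 groups of 2 libraries each: cMN3 (oculomotor), cMN4 (trochlear) and cMN7 (facial), each at e10.5 and e11.5 (embryonic days). The embryos came from crosses of 129S1/C57BL/6J males to C57BL/6J females, several litters were pooled for a library, the sex of the embryos was not determined, and no group received a treatment. The e10.5 libraries were amplified from whole-transcriptome RNA, whereas oligo-dT selection, with removal of ribosomal RNA and beta-globin transcripts, came before the e11.5 libraries, so the effect of age and that of the preparation cannot be told apart.

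Netrin-1 is secreted by floor plate cells at the ventral midline. Axons that carry DCC alone tend to grow toward it, whereas axons that carry an UNC5 receptor, alone or together with DCC, tend to turn away. Neogenin, the product of Neo1, is a relative of DCC that also binds the repulsive guidance molecules. The trochlear nerve is the only cranial motor nerve that leaves the brain dorsally, and cMN4 was therefore compared with cMN3, whose axons leave ventrally, and with cMN7, whose axons leave on the lateral side of the hindbrain.

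The marker genes of region set cMN7 apart from cMN3 and cMN4. The summed level of 8 midbrain and isthmus markers lay between 758 and 1054 counts-per-million (CPM) in the cMN3 and cMN4 libraries and between 6.49 and 29.5 CPM in cMN7. The summed level of 7 hindbrain and facial markers lay between 900.1 and 2415 CPM in cMN7 and between 1.32 and 29.3 CPM in the others. Over both ages the ranges of cMN3 and cMN4 overlapped in both sums, so these sums do not check those 2 labels against each other. Of the 8 midbrain and isthmus markers, 3 were higher and 2 lower in cMN4 than in cMN3 over both ages in edgeR, against 7.06% of all genes. Isl1, the motor neuron transcription factor behind the reporter, lay between 377 and 694 CPM in the 12 libraries. Mnx1 and Lhx3, which mark other motor neuron classes, were at or below 0.725 CPM in cMN3 and cMN4. The libraries summed to between 13991802 and 30536210 expected counts, and the 8 genes were covered by 491 (Unc5b) to 44592 (Neo1) counts over the 12 libraries. Replicate 2 of cMN4 at e11.5 stood apart in its markers. The summed level of 12 progenitor markers was 1411 CPM there, 723 CPM in replicate 1 and at most 1145 CPM in the other libraries, that of 7 neural crest and glial markers was 122 CPM, 32.5 CPM and at most 58.5 CPM, and that of 13 motor neuron markers was 1486 CPM, 2135 CPM and at least 2017 CPM. None of the markers of the 3 lists was at 0 in this library. In bulk RNA, fewer cells that express a gene and less RNA per cell cannot be told apart.

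Unc5a, Unc5c and Unc5d had their highest mean level in cMN4 at both ages. Dcc was below every cMN3 library in all 4 cMN4 libraries, a difference that did not pass the test on the 12 libraries. All values below are CPM scaled by TMM factors, and differences are log2 fold changes in the first-named nucleus minus the second, tested by edgeR's quasi-likelihood test with Benjamini-Hochberg adjustment over the 18022 genes at 0.05. The comparisons of cMN4 with cMN3 and of cMN4 with cMN7 share the cMN4 libraries. Averaged over both ages, 2 of the 8 genes passed the test between cMN4 and cMN3 (Unc5c and Unc5d), against 7.06% of all genes tested. Between cMN4 and cMN7, 3 of the 8 passed (Unc5a, Unc5c and Unc5d), against 9.62% of all genes. Every one of these 5 differences was higher in cMN4. The median difference of the 8 genes was 0.01 against cMN3 and 0.15 against cMN7, where the median of all genes tested was -0.0024 and -0.0080.

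**Figure D1:**
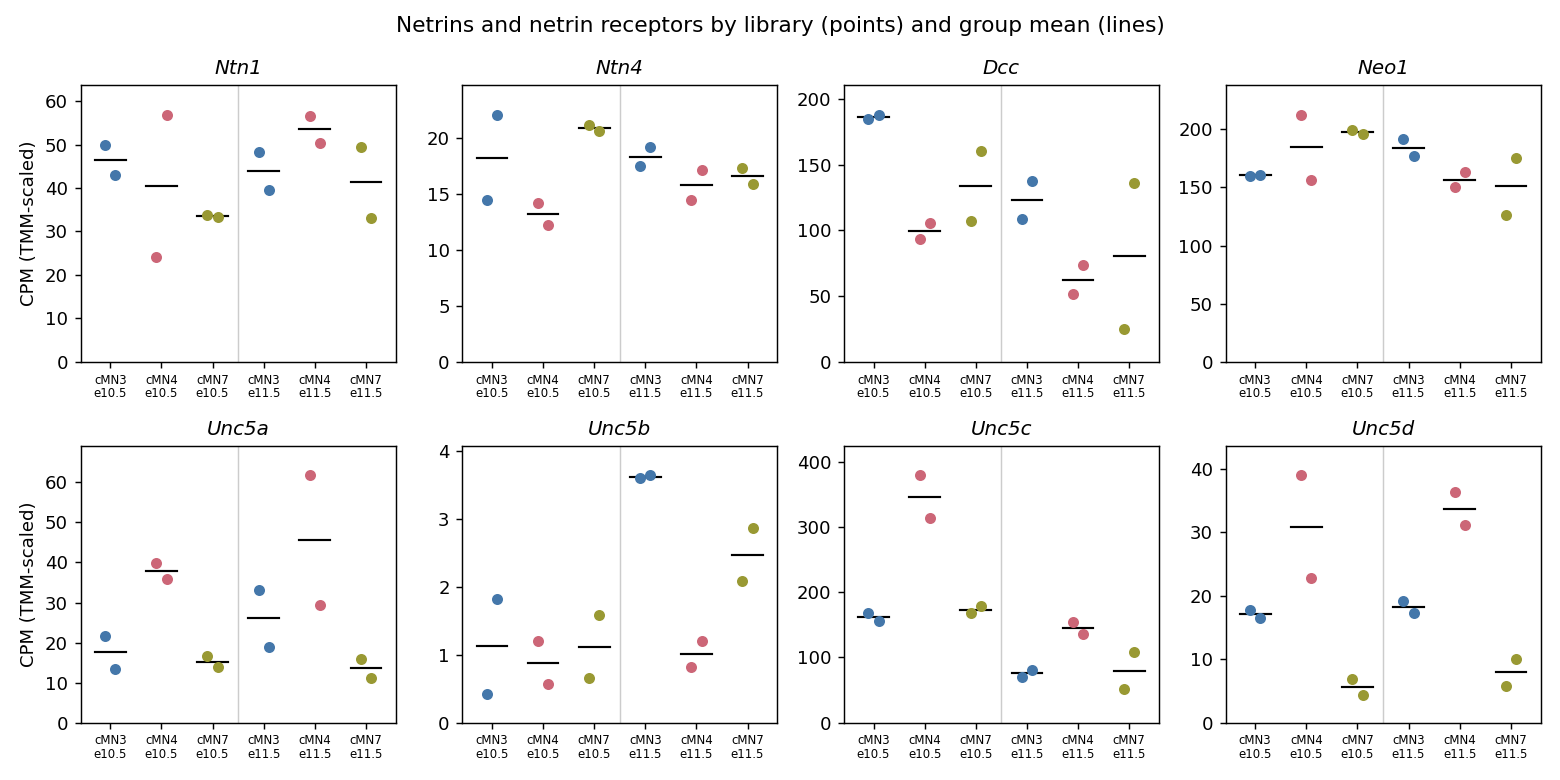
Level of each of the 8 genes (y axis, TMM-scaled CPM from 0, its own range in each panel) in the 12 libraries, by nucleus and age on the x axis; points are libraries and lines are means of 2. The Unc5c points of cMN4 (313 and 379 at e10.5, 136 and 154 at e11.5) lie above those of cMN3 and cMN7 of the same age, and the Dcc points of cMN7 at e11.5 lie at 24.7 and 136.

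Unc5c (chr3:141465216-141834924 on the plus strand, GRCm38) encodes the receptor whose loss in the rostral cerebellar malformation mouse misplaces cerebellar and brainstem cells. At e10.5 its level was 379 and 313 CPM in cMN4, 168 and 156 CPM in cMN3, and 169 and 178 CPM in cMN7. At e11.5 it was 154 and 136 CPM in cMN4, 70.1 and 81.3 CPM in cMN3, and 51.4 and 108 CPM in cMN7. At each age both cMN4 libraries stood above all 4 libraries of the other nuclei, with no overlap. The difference over both ages was 1.02 ± 0.19 (SE) against cMN3, a 2.02-fold higher level, with an adjusted p of 0.0075 (edgeR). Against cMN7 it was 0.93 ± 0.19, a 1.90-fold higher level, with an adjusted p of 0.0076 (edgeR). Both differences passed the test with each of the 12 libraries left out in turn, with the highest adjusted p at 0.0379 against cMN3 and 0.0420 against cMN7. They did not pass in limma on log2(TPM + 1), where TPM is transcripts-per-million and 1 the pseudocount: the differences were 1.07 (adjusted p = 0.0837) and 0.82 (adjusted p = 0.167). TPM divides by the effective length that RSEM gave the gene in each library, and for Unc5c that length ranged from 6176 to 9398 bases. Between cMN3 and cMN7, Unc5c differed by -0.09 ± 0.19, with a 95% interval from -0.49 to 0.32.

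Within 1 age the calls on Unc5c were less stable. At e10.5 the difference was 1.10 ± 0.27 against cMN3 (adjusted p = 0.0303, edgeR) and 1.0 ± 0.26 against cMN7 (adjusted p = 0.0465). Leaving out 1 library ended the first call for 6 of the 12 libraries, all 6 of e10.5, with differences from 0.95 to 1.23, and the second for 10 of the 12, all but the cMN7 libraries of e11.5. Neither passed in limma on log2(TPM + 1) (1.21 and 0.63, adjusted p = 0.118 and 0.443). At e11.5 the difference was 0.94 ± 0.26 against cMN3 (adjusted p = 0.136, edgeR) and 0.86 ± 0.26 against cMN7 (adjusted p = 0.124). Both passed in DESeq2 (adjusted p = 0.0128 and 0.0242) and without the filter (1.4e-05 and 3.6e-05), and the first also in voom with a weight per library (0.0111). Without cMN7 e11.5 replicate 1 or replicate 2, the difference from cMN3 at e11.5 passed (0.94 in both, adjusted p = 0.0024 and 0.0025), and without replicate 2 that from cMN7 became 1.51 (adjusted p = 0.00036). With same-numbered replicates blocked at e11.5 it was 0.96 against cMN3 and 0.93 against cMN7, with adjusted p-values of 0.0424 and 0.0303.

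Unc5d (chr8:28646717-29219636, minus strand), whose product UNC5D also binds the adhesion molecule FLRT2, separated all 3 nuclei. At e10.5 it was at 39.0 and 22.8 CPM in cMN4, at 17.7 and 16.5 CPM in cMN3, and at 6.91 and 4.34 CPM in cMN7. At e11.5 it was at 36.4 and 31.1 CPM in cMN4, at 19.1 and 17.3 CPM in cMN3, and at 5.78 and 10.1 CPM in cMN7. The order cMN4, cMN3, cMN7 held at both ages with no overlap between libraries. The difference between cMN4 and cMN7 over both ages was 2.27 ± 0.24, a 4.83-fold higher level, with an adjusted p of 6.25e-05 (edgeR). It also passed at each age in edgeR, at 2.46 ± 0.34 at e10.5 (adjusted p = 0.00092) and 2.08 ± 0.33 at e11.5 (adjusted p = 0.0027), and at neither age in limma on log2(TPM + 1) (1.56 and 1.78, adjusted p = 0.0610 and 0.0569). Over both ages the difference between cMN4 and cMN7 did pass in limma on log2(TPM + 1). The difference between cMN3 and cMN7 was 1.40 ± 0.23 (adjusted p = 0.0021, edgeR). The difference between cMN4 and cMN3 was smaller, 0.87 ± 0.22 (adjusted p = 0.0410, edgeR), and this call was lost in 9 of the 12 fits that left out 1 library, with differences from 0.66 to 1.04 over the 12 and adjusted p-values up to 0.146. It held without cMN4 e10.5 replicate 2 and without either cMN7 library of e11.5. In limma on log2(TPM + 1) the differences were 0.82 between cMN4 and cMN3 (adjusted p = 0.189) and 0.85 between cMN3 and cMN7 (adjusted p = 0.110).

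Unc5a (chr13:54949411-55006018, plus strand) encodes a receptor that is largely restricted to the nervous system. Its level at e10.5 was 40.0 and 35.9 CPM in cMN4, 21.7 and 13.4 CPM in cMN3, and 16.5 and 13.8 CPM in cMN7. At e11.5 it was 61.8 and 29.3 CPM in cMN4, 33.1 and 18.9 CPM in cMN3, and 15.9 and 11.2 CPM in cMN7. The cMN4 libraries lay above the cMN7 libraries at both ages, and at e11.5 1 cMN4 library lay below 1 cMN3 library. The difference from cMN7 was 1.53 ± 0.27 over both ages, a 2.89-fold higher level (adjusted p = 0.0030, edgeR). This difference over both ages also passed in limma on log2(TPM + 1). At e11.5 it was 1.74 ± 0.38 (adjusted p = 0.0212, edgeR), a call that was lost without cMN4 e11.5 replicate 1 (1.13, adjusted p = 0.125), cMN7 e11.5 replicate 1 (2.02, adjusted p = 0.0514) or cMN7 e11.5 replicate 2 (1.53, adjusted p = 0.0814). That call was also lost in voom with a weight per library (1.61, adjusted p = 0.189), in the fit of e11.5 alone (1.75, adjusted p = 0.108) and in limma on log2(TPM + 1) (1.77, adjusted p = 0.0546). At e10.5 it was 1.32 ± 0.38 and did not pass (adjusted p = 0.0662, edgeR). It did pass in DESeq2 (adjusted p = 0.0108), with the replicate block (0.0013), in the fit of e10.5 alone (0.0114), without the filter (5.6e-06) and without cMN4 e11.5 replicate 1 or 2 (0.0277 and 0.0260), with differences of 1.31 to 1.33. The difference from cMN3 was 0.96 ± 0.26 and lay just outside the threshold (adjusted p = 0.0519, edgeR). It did not pass in 10 of the 20 alternative fits, among them voom with a weight per library and limma on log2(TPM + 1). Over the 20 fits it ranged from 0.64 to 1.19. It passed in DESeq2 (0.97, adjusted p = 0.0069), with RLE factors (0.97, adjusted p = 0.0492), without the filter (0.95, adjusted p = 1.6e-06), with the replicate block (0.95, adjusted p = 0.0012), and without cMN3 e11.5 replicate 1 (1.19, adjusted p = 0.0461), cMN4 e11.5 replicate 2 (1.18, adjusted p = 0.0135) or either cMN7 e11.5 library (0.96 in both, adjusted p = 0.0433 and 0.0439). The lower cMN4 value at e11.5, 29.3 CPM, was that of replicate 2, the library with the high progenitor and glial sums. Replicate 2 was also the lower library at e11.5 in cMN3 (18.9 against 33.1 CPM) and in cMN7 (11.2 against 15.9 CPM). The part of the marker sums in the level of Unc5a was not tested. Without cMN4 e11.5 replicate 2, Unc5a differed from cMN7 by 1.76 over both ages.

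Among the promoters of the RefSeq table (GRCm38.p6), 5 of the 8 genes had an entry, and the 250 bases before the annotated start of Unc5a (chr13:54949161-54949410, plus strand) are shown because Unc5a was among the receptors higher in cMN4. Capitals mark the GC box letters GGGCGG or, on the other strand, CCGCCC.
Unc5a: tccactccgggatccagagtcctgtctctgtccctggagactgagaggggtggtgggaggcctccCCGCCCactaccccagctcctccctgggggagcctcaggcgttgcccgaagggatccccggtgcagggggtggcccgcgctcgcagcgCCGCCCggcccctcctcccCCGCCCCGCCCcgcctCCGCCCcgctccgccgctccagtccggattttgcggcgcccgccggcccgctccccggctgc
This window held 5 such matches, 2 of which overlap by 1 base, and no TAAT, the core of many homeodomain sites, on either strand. Of all 32851 promoter windows of the same length, 32.7% held GGGCGG on at least 1 strand and 54.9% held TAAT. Neo1, which did not pass any test between nuclei in edgeR, had 1 GC box match, Unc5b had 2 and Ntn4 had 4, and none of these 3 had TAAT. The window of Unc5c had no GC box match and 1 TAAT match, and it is not printed because the GENCODE annotation places it inside an exon.

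Unc5b (chr10:60762593-60831581, minus strand), best known from blood vessels, was scarce. It ranged from 0.423 to 3.65 CPM, and the highest values were those of cMN3 at e11.5 (3.61 and 3.65 CPM), against 0.82 and 1.21 CPM in cMN4 and 2.09 and 2.87 CPM in cMN7 of that age. The cMN4 libraries of e11.5 lay below those of both other nuclei. The difference from cMN3 at e11.5 was -1.82 ± 0.73, with an unadjusted p of 0.0287 in edgeR, and did not pass after adjustment. The summed level of 10 endothelial markers was 8.95 to 11.3 CPM in cMN3, 4.11 to 4.32 CPM in cMN4 and 5.66 to 5.90 CPM in cMN7 at e11.5, with 1 to 5 markers at 0 in a library, and its part in the level of Unc5b was not tested.

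**Figure D2:**
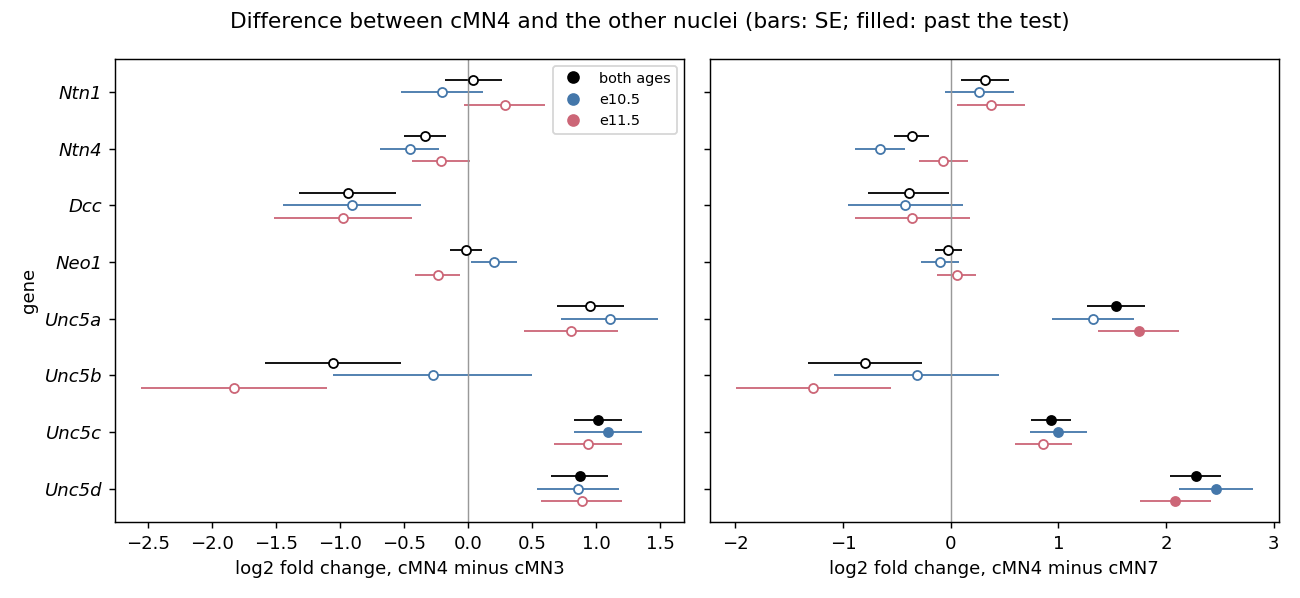
Log2 fold change (x axis) of each gene (y axis) in cMN4 minus cMN3, on the left, and cMN4 minus cMN7, on the right, for both ages together, e10.5 and e11.5; bars are SE and filled points passed the test at 0.05. Unc5a, Unc5c and Unc5d lie to the right of 0 in both panels, and Dcc at -0.94 against cMN3.

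Dcc (chromosome 18, minus strand), the receptor that mediates attraction to netrin-1, had a lower level in the cMN4 libraries than in those of cMN3. It was at 93.5 and 106 CPM in cMN4 against 185 and 188 CPM in cMN3 at e10.5, and at 51.6 and 73.4 CPM against 108 and 138 CPM at e11.5. All 4 cMN4 libraries thus lay below all 4 cMN3 libraries. The share of all genes with such a separation was not counted. Ntn4 also lay lower in cMN4 than in cMN3 without overlap within each age (-0.33 ± 0.16, not past the test). The Dcc difference over both ages was -0.94 ± 0.38, which did not pass in the fit of 12 libraries (adjusted p = 0.177, edgeR). In that fit all groups share 1 estimate of the spread, and the libraries of cMN7 at e11.5, at 24.7 CPM in replicate 1 and 136 CPM in replicate 2, were the farthest apart of any group. Without replicate 1 or replicate 2 of that group the difference was -0.94 with an adjusted p of 0.0030 or 0.0031, and without both it was -0.94 with an adjusted p of 0.0038. It also passed when same-numbered replicates were blocked (-0.96, adjusted p = 0.0457, edgeR) and without the filter on low counts (-0.94, adjusted p = 4.5e-11). It did not pass in 14 of the 20 alternative fits, among them DESeq2, RLE factors, voom and limma on log2(TPM + 1). Over the 20 fits the difference ranged from -1.08 to -0.69. In cMN7 at e10.5 Dcc was at 107 and 161 CPM, a difference of -0.42 ± 0.53 for cMN4 minus cMN7, and at e11.5 these groups overlapped. At e11.5 the difference of -0.36 ± 0.53 became -1.11 (adjusted p = 0.0366, edgeR) without cMN7 e11.5 replicate 1 and 1.36 (adjusted p = 0.0151) without replicate 2. Over both ages it was -0.39 ± 0.38 and became -0.77 (adjusted p = 0.0129) without replicate 1. The difference between cMN3 and cMN7 over both ages, 0.55 ± 0.38, became 1.40 (adjusted p = 0.00038) without replicate 2. No direction between cMN4 and cMN7 at e11.5 can be read from these libraries.

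Neo1 (chr9:58874687-59036441, minus strand) was the most even of the receptors. Its level ranged from 127 to 213 CPM with a median of 169 CPM, and its difference over both ages was -0.02 ± 0.13 against cMN3 and -0.02 ± 0.13 against cMN7. The 95% intervals of these differences ran from -0.29 to 0.26 and from -0.30 to 0.25, and so exclude a change of 1.5-fold in either direction.

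The netrins themselves did not pass any test between nuclei in edgeR. Ntn1 (chr11:68209364-68400823, minus strand), the main floor plate netrin, ranged from 24.2 to 56.9 CPM, and its lowest and highest values were the 2 cMN4 libraries of e10.5. Its difference was 0.04 ± 0.22 between cMN4 and cMN3 and 0.32 ± 0.23 between cMN4 and cMN7. The summed level of 9 floor plate markers was 162 to 202 CPM in cMN3 and 29.7 to 130 CPM in the other nuclei, and its part in the level of Ntn1 was not tested. Ntn4 (chr10:93640681-93747207, plus strand), a laminin-like netrin of basement membranes, ranged from 12.3 to 22.1 CPM. At e10.5 it was at 14.2 and 12.3 CPM in cMN4 and 21.2 and 20.7 CPM in cMN7, a difference of -0.66 ± 0.23 with an unadjusted p of 0.0159 in edgeR that did not pass after adjustment. In limma on log2(TPM + 1) Ntn4 passed between cMN3 and cMN7 at e10.5 (-0.94, adjusted p = 0.0360), where edgeR gave -0.20 ± 0.23. In that limma fit the median of all genes was -0.53, against -0.04 in edgeR, and 9.22% of the calls were higher in cMN3, against 51.8%.

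The genes were then counted within each age. At e10.5, 1 of the 8 genes passed between cMN4 and cMN3 (background 7.95% of all genes), 2 between cMN4 and cMN7 (6.55%) and 1 between cMN3 and cMN7 (14.4%). The last was Unc5d, at 1.60 ± 0.34 (adjusted p = 0.0088, edgeR), a call that was lost without cMN7 e10.5 replicate 2 (1.30, adjusted p = 0.111) and in limma on log2(TPM + 1) (0.66, adjusted p = 0.269). At e11.5, 0 passed between cMN4 and cMN3 in edgeR (1.85%), although 4 had an unadjusted p under 0.05, 1 passed in DESeq2, 2 in voom with a weight per library and 0 in limma on log2(TPM + 1). At e11.5, 2 passed between cMN4 and cMN7 (4.14%), and 0 between cMN3 and cMN7 (4.13%), where 2 had an unadjusted p under 0.05, 1 passed in DESeq2 and 0 in voom and limma. With same-numbered replicates blocked at e11.5, Unc5a and Unc5d passed there (0.90 and 1.21, adjusted p = 0.0350 and 0.0454, edgeR), and Unc5a over both ages (0.56, adjusted p = 0.0352). Over both ages 1 gene, Unc5d, passed between cMN3 and cMN7, against 11.3% of all genes.

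Between the ages, 1 of the 8 genes passed, while 49.8% of all genes did. Unc5c fell by 1.16 on the log2 scale from e10.5 to e11.5 as the mean of the 3 nuclei (SE 0.15, adjusted p = 0.0001, edgeR), from 227 to 100.1 CPM. Its levels did not overlap between the ages, since its lowest value at e10.5 was 156 CPM and its highest at e11.5 was 154 CPM. Dcc differed by -0.67 ± 0.31, Unc5b by 1.02 ± 0.43 and Ntn1 by 0.21 ± 0.18, and none of these passed. Dcc passed with same-numbered replicates blocked at e11.5 (-0.76, adjusted p = 0.0124, edgeR), with the block at both ages (-0.75, adjusted p = 0.0136), in voom with a weight per library (-0.82, adjusted p = 0.0234) and without the filter (-0.61, adjusted p = 6.2e-08). Unc5b passed in voom (1.22, adjusted p = 0.0374), without the filter (1.08, adjusted p = 0.0479) and in limma on log2(TPM + 1) (0.54, adjusted p = 0.0067), where Ntn1 also passed (0.56, adjusted p = 0.0155) and the median of all genes was 0.33. Among the fits that left out 1 library, Dcc passed without cMN7 e11.5 replicate 1 (-0.39, adjusted p = 0.0352) or replicate 2 (-1.21, adjusted p = 3.7e-05), Unc5b without cMN3 e10.5 replicate 2 (1.48, adjusted p = 0.0098), and Ntn1 without cMN4 e10.5 replicate 2 (0.48, adjusted p = 0.0123). The difference between nuclei did not pass a test of change with age for any of the 8 genes, with 0 called for cMN4 minus cMN3 (background 0.0999%) and 0 for cMN4 minus cMN7 (0.333%). None had an unadjusted p under 0.05 in edgeR, and DESeq2, voom and limma also called 0. Without cMN7 e11.5 replicate 2 the change for Dcc was 1.79 (adjusted p = 0.0357) for cMN4 minus cMN7. For Unc5c the change in the difference from cMN3 was -0.16 with a 95% interval from -0.97 to 0.65, which spans changes of nearly 2-fold.

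On a scale per length (TPM), the 8 genes kept a broad order in the 12 libraries. Neo1 had the highest TPM of the 8 in 10 libraries, and Dcc and Unc5c in 1 each. Unc5b was the lowest in all 12. The median TPM over libraries was 73.3 for Neo1, 41.1 for Dcc, 36.0 for Unc5c, 13.8 for Ntn1, 13.1 for Unc5a, 9.88 for Ntn4, 4.67 for Unc5d and 0.455 for Unc5b. The ranges of neighbours in this order overlapped over the libraries, though those of Unc5d (1.43 to 10.8 TPM) and Unc5b (0.10 to 1.46 TPM) only at their ends.

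The make-up of the receptors within a library was then described, a measure that does not depend on the scaling between libraries. In TPM it does depend on the effective length that RSEM gave each gene in each library. The Unc5 genes together made up 46.8% and 48.7% of the summed TPM of the 6 receptors in cMN4 at e10.5 and 50.9% and 38.6% at e11.5. In cMN3 their share was 34.5% and 25.3% at e10.5 and 26.8% and 24.7% at e11.5, and in cMN7 it was 30.5% and 27.5%, then 31.3% and 23.5%. The lowest cMN4 library, replicate 2 of e11.5 with its high progenitor and glial sums, still lay above the highest of the other nuclei. In counts, which use no length, the Unc5 share ranged from 45.6% to 60.0% in cMN4 and was at most 38.7% in the other nuclei. As group means the TPM share was 47.8% ± 1.31 (SD, n = 2) in cMN4, 29.9% ± 6.47 in cMN3 and 29.0% ± 2.17 in cMN7 at e10.5, and 44.8% ± 8.72, 25.7% ± 1.49 and 27.4% ± 5.46 at e11.5. The ratio of Unc5c to Dcc in TPM was between 1.04 and 2.33 in cMN4, between 0.325 and 0.730 in cMN3, and between 0.480 and 1.11 in cMN7. Only the cMN7 library with the low Dcc value reached into the cMN4 range. These shares and ratios were chosen after the levels were seen and carry no test.

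**Figure D3:**
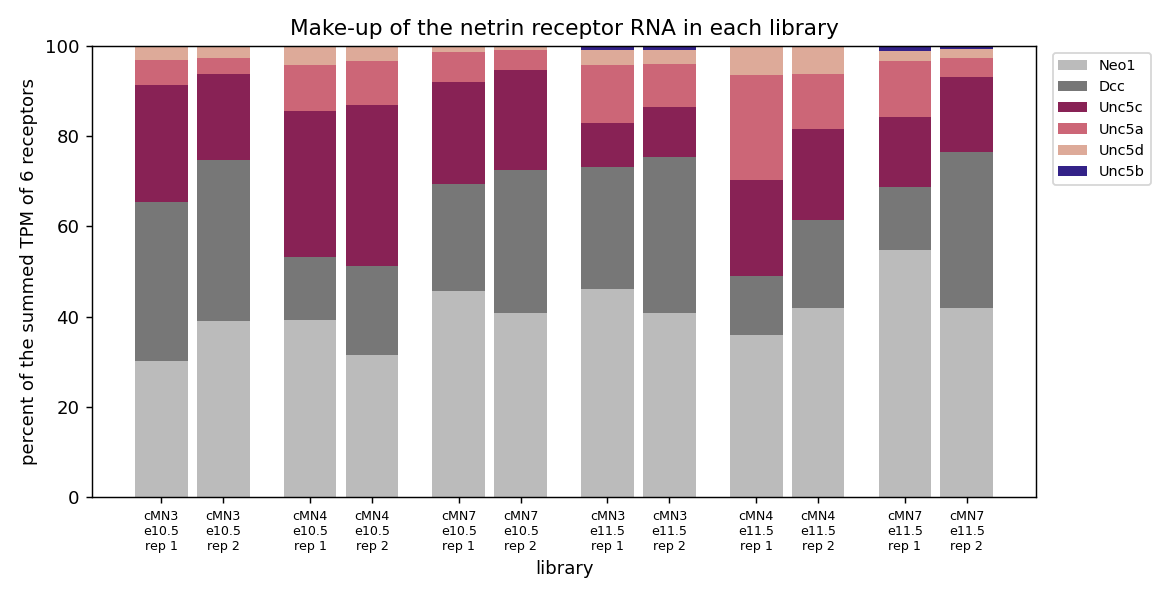
Percent of the summed TPM of 6 receptors (y axis) taken by each receptor, stacked, in the 12 libraries (x axis, nucleus, age and replicate). The 4 Unc5 genes together reach 38.6% to 50.9% in cMN4 and stay at or below 34.5% in cMN3 and cMN7, and Unc5b is barely visible.

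Sensory ganglion markers also differed with the nuclei. The summed level of 10 sensory ganglion markers was 646 to 781 CPM in cMN4, 283 to 334 CPM in cMN3 and 359 to 399 CPM in cMN7 at e10.5. At e11.5 it was 494 to 572 CPM, 239 to 242 CPM and 212 to 340.3 CPM. Eya1 alone gave 371 to 662 CPM of the sums in cMN4, whereas Pou4f1 was at 5.37 to 7.10 CPM there and at 26.7 to 68.4 CPM in cMN7, and Pou4f3 was at 0 in all 4 cMN4 libraries. The part of these markers in the levels of the Unc5 genes was not tested. Eya1, a transcriptional coactivator, was also among the 3 genes whose pattern was most like that of Unc5d.

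The genes with the most similar pattern were found by Pearson's r of log2 CPM, centred within each age, over the 12 libraries among 9280 genes, as a description. For Unc5c these were Epha7 (r = 0.97), an ephrin receptor, Slc25a37 (0.96), a mitochondrial iron carrier, and Pcdh17 (0.95), a protocadherin. Those for Unc5d included Eya1 (0.96) and Ibtk (0.96). For Unc5a they were Dyrk3 (0.94), Stat3 (0.92) and Mat2a (0.91), and for Dcc they were Pclo (0.96), Med12 (0.96) and Cblb (0.94). Like Dcc (SD 78.5 CPM), Pclo, Med12 and Cblb had their largest SD of any group in cMN7 at e11.5 (41.0, 37.4 and 46.3 CPM). The part of the split between these cMN7 libraries in the r values for Dcc was not tested.

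Several other ligands of these receptors and their relatives differed between the nuclei. Of 15 further ligands tested of 17 listed, 4 were higher and 5 lower in cMN4 than in cMN3, and 3 were higher and 7 lower than in cMN7 (median differences -0.35 and -0.44). Of all genes tested, 7.06% passed against cMN3 and 9.62% against cMN7, about evenly in both directions (628 higher and 644 lower, then 852 and 882). Draxin, a secreted protein that binds DCC and netrin-1, was at 63.3 to 69.8 CPM in the 4 cMN4 libraries, 97.3 to 124 CPM in cMN3 and 327 to 464 CPM in cMN7. Its difference from cMN7 was -2.64 ± 0.10 and that from cMN3 was -0.75 ± 0.09, both past the test (adjusted p = 2.9e-08 and 0.00058, edgeR). Ntng1, which encodes the membrane-anchored netrin-G1 that does not bind DCC, was at 50.7 to 71.2 CPM in cMN4, 21.2 to 39.5 CPM in cMN3 and 3.81 to 10.2 CPM in cMN7. It was higher in cMN4 by 0.89 ± 0.14 and 3.18 ± 0.16 (adjusted p = 0.0031 and 1.6e-07, edgeR). Its paralogue Ntng2 went the other way, at -1.68 ± 0.29 and -2.10 ± 0.29. Flrt1, a member of the FLRT family of UNC5 ligands, was lower in cMN4 than in both other nuclei, by -1.79 ± 0.18 and -1.25 ± 0.18. Cbln1, a cerebellin, was lower in cMN4 than in both (-2.28 ± 0.33 and -2.68 ± 0.34), and Cbln2 was higher than in cMN3 (1.96 ± 0.30) and lower than in cMN7 (-1.90 ± 0.26).

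Of 17 coreceptors and related receptors, 1 was higher and 1 lower in cMN4 than in cMN3, and 2 were higher and 3 lower than in cMN7 (median differences -0.06 and 0.18), against 7.06% and 9.62% of all genes. With 17 genes, the count of 2 against cMN3 is near that background. Dscam, which encodes a netrin receptor of the immunoglobulin family, was at 47.2 to 56.8 CPM in cMN4, 66.2 to 90.6 CPM in cMN3 and 17.3 to 28.1 CPM in cMN7. The order cMN3, cMN4, cMN7 held with no overlap, with differences of -0.66 ± 0.13 from cMN3 and 1.11 ± 0.13 from cMN7, both past the test (adjusted p = 0.0107 and 0.00015, edgeR). Its relative Dscaml1 was lower in cMN4 than in cMN7 (-1.69 ± 0.34), and so was the Slit receptor Robo1 (-1.01 ± 0.17). The count of 5 coreceptors past the test against cMN7 was 3 without cMN4 e10.5 replicate 1 or either cMN7 e10.5 library, and that of 2 against cMN3 was 1 without cMN3 e11.5 replicate 1.

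Of 39 genes listed for DCC and UNC5 signalling, not all of them downstream of the receptors, 0 were higher and 6 lower in cMN4 than in cMN3. Against cMN7, 2 were higher and 2 lower in cMN4 (median differences -0.09 against cMN3 and -0.01 against cMN7). The count of 4 of 39 against cMN7 is near the 9.62% of all genes, and that of 6 against cMN3 stands beside 7.06%. Prkca, a protein kinase C, was at 6.28 to 9.91 CPM in cMN4 and 16.3 to 20.8 CPM in cMN3, a difference of -1.31 ± 0.20 (adjusted p = 0.0022, edgeR). Ablim1, the actin-binding relative of the UNC-115 protein that acts in netrin signalling in worms, was at 166 to 185 CPM in cMN4, 207 to 339 CPM in cMN3 and 34.0 to 76.8 CPM in cMN7. It was lower in cMN4 than in cMN3 (-0.59 ± 0.09) and higher than in cMN7 (1.81 ± 0.09), and Ablim3 was higher than in cMN7 (1.57 ± 0.22). The 6 genes lower than in cMN3 did not all serve one step: besides Prkca and Ablim1 they were Elmo1, a partner of the Rac activator DOCK1, the splicing factor Nova1, the kinase Pak1 and the ubiquitin ligase Trim9. In limma on log2(TPM + 1), 0 of the 39 passed between cMN4 and cMN3, and 10 passed between cMN4 and cMN7 in DESeq2. The 4 signalling genes past the test against cMN7 became 7 without cMN4 e11.5 replicate 1 and 8 without either cMN7 e11.5 library.

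**Figure D4:**
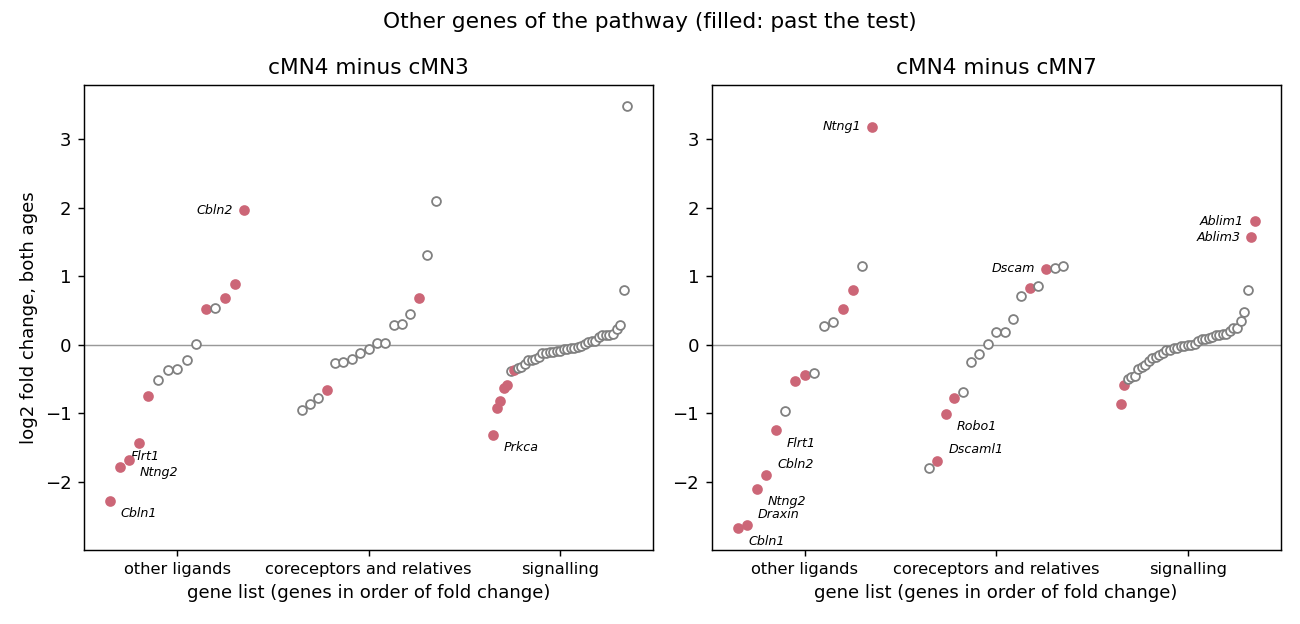
Log2 fold change over both ages (y axis) of the other ligands, the coreceptors and relatives, and the signalling genes (x axis, in order of fold change within a list) in cMN4 minus cMN3 and cMN4 minus cMN7; filled points passed the test at 0.05 and the labelled ones are those described in the text with a difference of at least 1 in size. Ntng1 stands highest against cMN7 at 3.18, and Cbln1 and Draxin stand lowest at -2.68 and -2.64.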

How the data were processed

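GFP-positive motor neurons of cMN3, cMN4 and cMN7 were sequenced in 12 libraries, 2 biological replicates in each of 6 groups, and cMN6 was not analysed here. The deposited expected counts per gene were estimated by the authors with RSEM after alignment with STAR to GRCm38, without normalization. The deposited TPM values were computed by the authors with RSEM from the effective length of each gene. Whether counting used strand is not given in the sources used here. The annotated genes that overlap the 8 genes summed to at most 405 counts each.

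Expected counts were rounded, filtered (edgeR's filterByExpr, minimum count 10, minimum total 15, 18022 genes left) and scaled by TMM. Differences between the 6 groups were tested with edgeR 4.0.16 (R 4.3.3) by the quasi-likelihood test, with Benjamini-Hochberg adjustment at 0.05. SE is the log2 fold change divided by the root of F. The script was tested on simulated counts with 2-fold or 4-fold differences set in cMN4. Over both ages, 57% of the 2-fold differences were recovered against cMN3 and 56% against cMN7. Of the 4-fold differences, 84% were recovered in each comparison. False calls made up 3.42% of the calls against cMN3 and 6.67% against cMN7. The simulated libraries were drawn independently, without the shared deviation of same-numbered replicates at e11.5. Fewer genes were set to differ than passed the test in the data, so these shares hold for the simulated setting only. Alternatives were DESeq2 1.42.0, RLE factors, no filter, the replicate number as a block, limma 3.58.1 on log2(TPM + 1), voom with a weight per library, 1 age alone, and each library left out. The 8 genes, the gene lists and the tests were chosen with earlier results of these data known. From the lists, genes past the test with a difference of at least 1 were named, up to 6 a list by smallest p, and the 6 signalling genes lower than in cMN3 were all named after their values were seen. Of the genes with a similar pattern, 1 is not reported here. Same-numbered replicates deviated together at e11.5 (r of 0.58 to 0.73 over 7805 genes in all pairs of nuclei) and not at e10.5 (r of -0.012 to 0.10). No label ties the numbers to litters or days.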

Additional observations from a re-analysis of the deposited data

Results flagged for a closer look

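Neo1 was lower in both cMN3 libraries than in both cMN7 libraries at e10.5 (160.1 and 161 against 199 and 196 CPM) and higher at e11.5 (192 and 177 against 127 and 175 CPM), so that the direction between these nuclei was opposite at the 2 ages. The difference of the differences was 0.59 ± 0.25 (SE) on the log2 scale, with an unadjusted p of 0.0378, and did not pass after adjustment (adjusted p = 0.246, edgeR's quasi-likelihood test, a contrast added after the values were seen).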

How the results depend on the processing

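Of the 8 genes, 2, 1 and 0 passed between cMN4 and cMN3 over both ages, at e10.5 and at e11.5, 3, 2 and 2 between cMN4 and cMN7, 1, 1 and 0 between cMN3 and cMN7, and 1 between the ages. DESeq2 gave 2 and 1 between cMN4 and cMN3 at e10.5 and e11.5 and 1 between cMN3 and cMN7 at e11.5. Without the filter the counts were 4, 4 and 4 between cMN4 and cMN3, 3 and 3 between cMN3 and cMN7 (both ages, e11.5) and 3 between the ages. The replicate block at both ages gave 4 and 2 between cMN4 and cMN3 (both ages, e10.5), 2 and 2 between cMN3 and cMN7 (both ages, e11.5) and 2 between the ages. The block at e11.5 alone, chosen after seeing the data, gave 4, 2 and 1, then 2 and 2, and 2, and no blocked fit lost a call on these genes. Without both cMN7 e11.5 libraries, also chosen after seeing the data, 4, 2 and 2 passed between cMN4 and cMN3. In limma on log2(TPM + 1) the counts were 0 and 0 between cMN4 and cMN3 (both ages, e10.5). Between cMN4 and cMN7 they were 2, 0 and 0 (both ages, e10.5, e11.5). The limma counts were 0 between cMN3 and cMN7 over both ages and 3 between the ages. There the median of all genes moved to 0.15 for cMN4 minus cMN3 and 0.33 between the ages, and 65.2% of the calls were higher in cMN4 than in cMN3 against 49.4% before, 38.6% higher than in cMN7 against 49.1%, and 76.5% higher at e11.5 against 53.5%. For cMN3 minus cMN7 the median was -0.21 over both ages and 22.4% of the calls were higher, against 48.0%, and at e10.5 the medians were 0.30 for cMN4 minus cMN3 (75.1% higher against 45.7%) and -0.24 for cMN4 minus cMN7 (24.6% against 49.2%). The fit of 1 age alone gave 3 for cMN4 minus cMN3 at e10.5 and 1 for cMN4 minus cMN7 at e11.5. Voom with a weight per library gave 2 for cMN4 minus cMN3 and 1 for cMN4 minus cMN7 at e11.5, and 3 between the ages.

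With each library left out in turn, the counts ranged over 1 to 4, 0 to 2 and 0 to 2 between cMN4 and cMN3, 3 to 4, 1 to 2 and 1 to 3 between cMN4 and cMN7, 1 to 2, 0 to 1 and 0 to 2 between cMN3 and cMN7, 1 to 2 between the ages, and 0 to 0 and 0 to 1 for the change with age. Dcc in cMN4 minus cMN7 at e11.5 ranged from -1.11 to 1.36 and turned its direction. Over all genes, the number called between cMN4 and cMN3 over both ages was 1272 and ranged from 556 (without cMN3 e11.5 replicate 1) to 2118 (no filter), and between cMN4 and cMN7 it was 1734 and ranged from 1028 (without cMN7 e10.5 replicate 1) to 2463 (no filter). Within e10.5 and e11.5 these ranges were 519 to 2455 around 1432 and 132 to 931 around 334 for cMN4 minus cMN3, and 482 to 1774 around 1180 and 483 to 1434 around 746 for cMN4 minus cMN7. For cMN3 minus cMN7 they were 1170 to 2851 around 2043 over both ages, 966 to 4362 around 2599 at e10.5 and 399 to 1514 around 744 at e11.5. For the change with age they were 3 to 673 around 18 and 4 to 382 around 60. Differences that changed sign without passing the test in either fit were not counted as turned. The cause of these changes was not tested. Unc5b rested on the fewest counts, 491 in all, and the part of depth and of group size in the lost calls was not tested.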
